A study of Mus musculus with 2 samples.

Results

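Major histocompatibility complex (MHC) class I molecules show peptides from inside a cell to CD8 T cells and natural killer (NK) cells. The 10 genes described here make and load them, and were taken by symbol from the 32285 genes of the deposited count matrices: H2-K1, H2-D1, H2-Q7 and H2-T23 (heavy chains), B2m (the light chain), Tap1, Tap2 and Tapbp (peptide transport and loading) and Psmb8 and Psmb9 (immunoproteasome subunits). They were followed in B, CD4 T, CD8 T and NK cells of mouse spleen by 5′ single-cell RNA sequencing. The ALLO library came from wild-type C57BL/6 recipients grafted 2 times, at weeks 0 and 5, with tail skin of C57BL/6-Tg(HLAA2.1)1Enge/J donors, which carry a transgene for human HLA-A2.1, itself a class I heavy chain. The SYN library came from wild-type C57BL/6 recipients grafted by the same procedure with wild-type C57BL/6 skin. Spleens of both were taken 4 weeks after the last graft, and the cells were frozen, thawed and passed over dead-cell removal columns. All recipients were of the same strain. Each group was 1 library and the number of animals behind it is not given in the labels, so no difference between ALLO and SYN has a replicate check and no p-value is given.

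A class I complex is a heavy chain held by beta-2-microglobulin around a short peptide. Proteasomes cut proteins into peptides, the TAP1 and TAP2 transporter moves them into the endoplasmic reticulum, and tapasin keeps empty class I molecules at the transporter until a peptide fits. H2-K1 and H2-D1 encode the classical molecules H-2K and H-2D, which nearly all nucleated cells carry. Lymphocytes express them constitutively, and interferons raise most genes of the pathway through factors such as IRF1 and the transactivator NLRC5. H2-Q7 encodes a Qa-2 antigen and H2-T23 encodes Qa-1, which presents leader peptides of other class I chains to CD94/NKG2A receptors.

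The cells were selected by transcript counts among barcodes with at least 1000 unique molecular identifiers (UMIs, one per captured RNA molecule). The B gate held 6941 ALLO and 6801 SYN cells, the CD4 T gate 573 ALLO and 868 SYN cells, the CD8 T gate 558 ALLO and 554 SYN cells, and the NK gate 212 ALLO and 335 SYN cells. Summed UMIs were 25722355 (ALLO) and 23135811 (SYN) in B cells, and 811736 (ALLO) and 1129752 (SYN) in the NK gate, the smallest. B cell markers (6 genes, all detected, among them Cd79a, Cd79b and Ms4a1) summed to 8088 CPM (UMIs of the genes per 1000000 UMIs of the gate) in the ALLO B gate and 8493 in the SYN B gate, against 39.2 to 61.3 in the T cell gates. T cell markers summed to 3354 to 3971 CPM in the T cell gates, and Cd8a and Cd8b1 were at 0 in the CD4 T gate, as Cd4 was in the CD8 T gate, which the gate rules set. The NK gate carried its own 6 markers at 12260.1 CPM in ALLO and 12927 in SYN, but also B cell markers at 2076 in ALLO and 2254 in SYN. It shared 57 ALLO and 107 SYN barcodes with the B gate. A stricter NK gate with no UMI of Cd79a, Cd79b, Cd4, Cd8a or Cd8b1 left 128 ALLO and 212 SYN cells. B cell markers there, of which Cd79a and Cd79b are 0 by that rule, summed to 35.9 CPM in ALLO and 33.8 in SYN. The members' ratios are given for both NK gates. Neutrophil markers (S100a8, S100a9, Retnlg, Csf3r) summed to 4.04 CPM in ALLO and 475 in SYN in the B gate, and to 4.51 in ALLO and 152 in SYN in the CD8 T gate. Their part in the differences between ALLO and SYN was not tested. The libraries shared 264 barcodes, 159 of them among the cells kept.

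The promoters of the 4 heavy chain genes and of B2m are shown because these genes differed between cell types, H2-T23 in another order than the rest. Each is the stretch of 180 bases before the annotated start, 5′ to 3′ on the gene's strand, from RefSeq on GRCm38.p6, the assembly that mm10 also denotes. Capitals mark a kappa B element of 10 letters (the first capitals of H2-K1, H2-D1 and H2-Q7), AANNGAAA (an interferon regulatory factor element), TGACG (a cAMP response element core) and CCAAT, each searched on both strands.
H2-K1, chr17:34000348-34000527, minus strand: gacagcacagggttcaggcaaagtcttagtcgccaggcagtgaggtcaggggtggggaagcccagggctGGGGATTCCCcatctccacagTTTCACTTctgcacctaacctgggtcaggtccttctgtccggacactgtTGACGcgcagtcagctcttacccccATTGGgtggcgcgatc
H2-D1, chr17:35262914-35263093, plus strand: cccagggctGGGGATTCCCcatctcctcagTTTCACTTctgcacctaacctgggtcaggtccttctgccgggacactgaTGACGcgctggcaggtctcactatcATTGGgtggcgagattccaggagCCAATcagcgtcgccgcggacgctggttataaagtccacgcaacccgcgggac
H2-Q7, chr17:35438975-35439154, plus strand: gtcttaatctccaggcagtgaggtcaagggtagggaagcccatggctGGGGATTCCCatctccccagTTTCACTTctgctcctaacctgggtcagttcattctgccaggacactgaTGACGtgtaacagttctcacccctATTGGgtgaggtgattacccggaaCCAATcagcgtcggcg
B2m, chr2:122147507-122147686, plus strand: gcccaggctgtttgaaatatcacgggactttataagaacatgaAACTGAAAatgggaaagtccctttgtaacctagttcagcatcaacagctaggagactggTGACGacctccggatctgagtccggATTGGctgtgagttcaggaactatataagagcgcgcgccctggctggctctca
H2-T23, chr17:36032702-36032881, minus strand: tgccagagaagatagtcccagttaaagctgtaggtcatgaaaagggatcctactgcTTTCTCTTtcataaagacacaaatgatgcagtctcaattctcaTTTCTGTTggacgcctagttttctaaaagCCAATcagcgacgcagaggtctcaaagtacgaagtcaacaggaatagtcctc

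In H2-K1, H2-D1 and H2-Q7 these elements stood in the same order. The interferon regulatory factor element began 21 bases after the kappa B element in H2-K1 and H2-D1 and 20 bases after it in H2-Q7, and TGACG began 49 bases later in all 3. The window of the same 180 bases held that kappa B element in 22 of 32851 promoters (0.067%), AANNGAAA in 15.1%, TGACG in 14.8% and CCAAT in 27.5%. Of the 9 members with a promoter in the table, the kappa B element was in these 3 and AANNGAAA in these 3, B2m and H2-T23. B2m held AANNGAAA, TGACG and CCAAT, while H2-T23 held AANNGAAA at 2 places and CCAAT. The letters are a description of the DNA, and binding was not measured.

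In RefSeq the starts of Tap1 and Psmb9 enclose 225 bases on opposite strands, and this stretch is shown because it lies before both. It is chr17:34187331-34187555 of GRCm38.p6, written on the plus strand, with the start of Psmb9 to its left and that of Tap1 to its right, and capitals as above.
Psmb9 to Tap1: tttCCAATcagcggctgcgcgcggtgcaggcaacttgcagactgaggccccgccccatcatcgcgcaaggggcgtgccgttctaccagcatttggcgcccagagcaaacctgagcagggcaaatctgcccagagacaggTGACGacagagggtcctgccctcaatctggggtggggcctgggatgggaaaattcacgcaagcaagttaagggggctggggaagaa

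Of the 10 protein-coding genes, 9 lie on chromosome 17 and B2m lies on chromosome 2 (chr2:122147686-122153083, GENCODE M21 on GRCm38). H2-K1 is at chr17:33996017-34000347, H2-D1 at chr17:35262730-35267499, H2-Q7 at chr17:35439155-35443773 and H2-T23 at chr17:36029773-36032855. Psmb9 (chr17:34181987-34187764), Tap1 (chr17:34187553-34197225), Psmb8 (chr17:34197721-34201454) and Tap2 (chr17:34203527-34216321) are neighbours, and Tapbp is at chr17:33915899-33929292. These GENCODE genes do not always begin where RefSeq begins them. Psmb9 begins to the right of the stretch shown and overlaps Tap1 by 212 bases on the opposite strand, the H2-D1 window lies inside the GENCODE gene, and most of the H2-T23 window does. On the opposite strand B2m overlaps Patl2, H2-T23 overlaps A930015D03Rik, Psmb8 and Tap2 overlap Gm20496, Tap2 also Gm15821, and Tapbp overlaps Gm19412, while on its own strand Tapbp overlaps Zbtb22. Reads in these overlaps cannot be assigned with certainty, since the strand setting of the counting is not given in the sources used here. Heavy chain genes resemble each other: of all windows of 90 bases in the principal transcript, 12.5% occur in another gene for H2-Q7 (mostly H2-Q6), 8.75% for H2-T23, 5.12% for H2-D1 and 0.131% for H2-K1. None of the first 500 such windows, nearest the 5′ end that this assay reads, was shared for any member. Heavy chain levels are therefore uncertain for reads far from the 5′ end.

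By CPM, classical class I transcripts were highest in NK cells and lowest in B cells in both libraries. H2-K1 had 2877 (ALLO) and 3125 (SYN) CPM in the NK gate, 2504 (ALLO) and 2624 (SYN) in CD4 T cells, 2096 (ALLO) and 2291 (SYN) in CD8 T cells, and 1471 (ALLO) and 1547 (SYN) in B cells. H2-D1 followed the same order, with 3120.5 (ALLO) and 3311 (SYN) in the NK gate, 2199 (ALLO) and 2236 (SYN) in CD4 T cells, 1934 (ALLO) and 2062 (SYN) in CD8 T cells, and 1762 (ALLO) and 1851 (SYN) in B cells. For both genes every step of that order lay outside the 95% counting interval in each library, and the values of neighbouring gates did not overlap between libraries. Relative to the median of all genes, the log2 difference of CD8 T from CD4 T cells was 0.026 (ALLO) and -0.003 (SYN) for H2-D1. For H2-K1 it was -0.045 (ALLO) and -0.082 (SYN), so the step between the T cell gates depends on the base. A denominator without receptor, mitochondrial and ribosomal protein genes put SYN H2-K1 at 0.87 over B cells in CD4 T cells (log2). In the NK gate it was 0.85, so the order of these gates for H2-K1 in SYN also turned with the base.

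B2m separated B cells from the rest, with no stable order among the others. It had 2328 (ALLO) and 2189.9 (SYN) CPM in the NK gate, 2154 (ALLO) and 2229 (SYN) in CD8 T cells, and 2151 (ALLO) and 2220.2 (SYN) in CD4 T cells, against 1449 (ALLO) and 1465 (SYN) in B cells. The values of the 3 gates other than B overlapped between libraries.

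**Figure D1:**
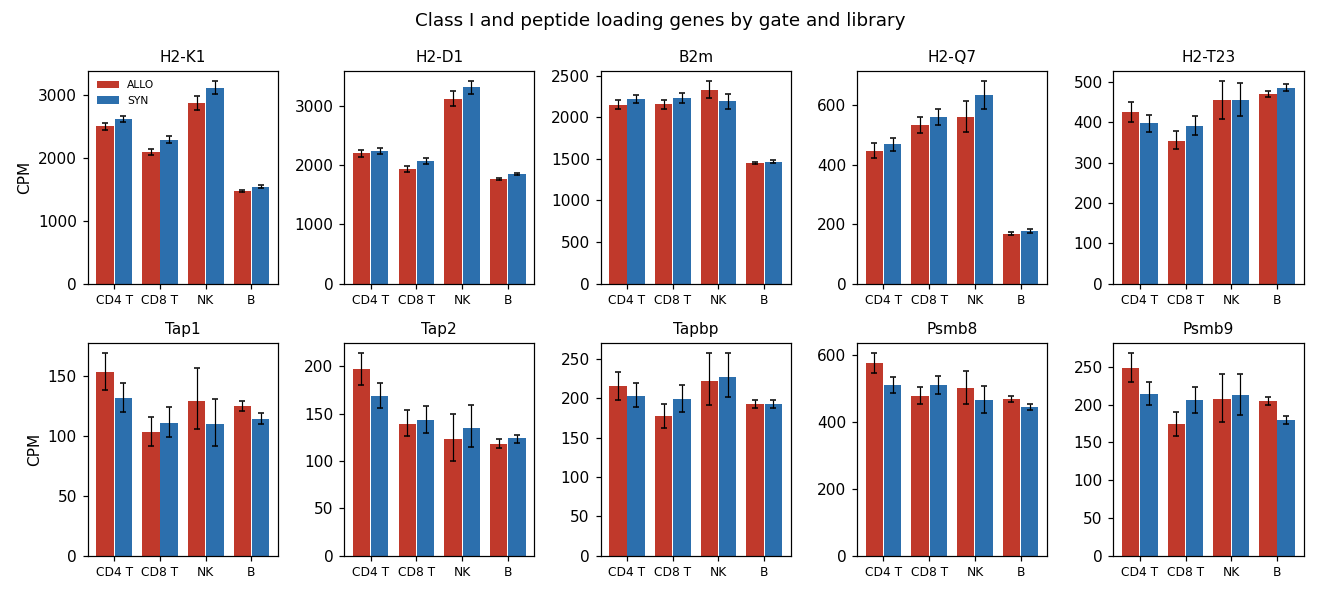
CPM of the gate total for each of the 10 genes (linear axes from 0), by gate, with ALLO left of SYN; bars are single libraries and error bars are exact 95% Poisson intervals, which cover counting error only. H2-K1, H2-D1, B2m and H2-Q7 are lowest in B cells in both libraries, while H2-T23 is highest there, within counting error of the NK gate.

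H2-Q7 differed most between cell types. It had 561 (ALLO) and 634 (SYN) CPM in the NK gate, 532 (ALLO) and 560.3 (SYN) in CD8 T cells, 446 (ALLO) and 468 (SYN) in CD4 T cells, and 168 (ALLO) and 176 (SYN) in B cells. The NK and CD8 T values of ALLO did not differ beyond counting error, and the other neighbours in that order did. Relative to the median of all genes, the log2 difference of the NK gate from CD8 T cells was -0.235 in ALLO and -0.155 in SYN. The order of these gates thus turned with the base for H2-Q7. H2-Q6, its near copy, had 358 (ALLO) and 347 (SYN) in the NK gate, 202 (ALLO) and 203 (SYN) in CD8 T cells, 179 (ALLO) and 153 (SYN) in CD4 T cells, and 187 (ALLO) and 183 (SYN) in B cells. Over B cells H2-Q6 stood at 0.955 (ALLO) and 0.838 (SYN) in CD4 T cells, where H2-Q7 was 2.65-fold higher in both libraries.

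H2-T23 had another order of gates, with B cells and the NK gate at the top. It was highest in B cells, at 471 CPM in ALLO and 486 in SYN, and next in the NK gate, at 455 in ALLO and 456 in SYN. CD4 T cells had 425 (ALLO) and 398 (SYN), and CD8 T cells 355 (ALLO) and 391 (SYN). The B and NK values did not differ beyond counting error in either library. In the stricter NK gate H2-T23 had 464 CPM in ALLO and 503 in SYN, against 471 (ALLO) and 489 (SYN) in B cells selected as strictly.

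The peptide transport, loading and immunoproteasome genes differed by 1.15-fold to 1.66-fold between the highest and lowest gate, beside 3.33-fold (ALLO) and 3.60-fold (SYN) for H2-Q7. Tap1 lay between 103 and 153 CPM in ALLO and between 109.8 and 132 in SYN, and Tap2 between 118 and 197 in ALLO and between 124 and 169 in SYN. CD4 T cells were highest for both genes in each library. Tapbp, the gene of tapasin, lay between 177 and 222 in ALLO and between 192 and 227 in SYN, highest in the NK gate in both. Psmb8 lay between 469 and 576 in ALLO and between 445 and 511 in SYN, and Psmb9 between 174 and 249 in ALLO and between 179 and 214 in SYN. The order of gates for Tap1, Tapbp, Psmb8 and Psmb9 differed between the libraries, and many neighbours did not differ beyond counting error.

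Set over B cells within each library, H2-Q7 was 3.33-fold higher in the ALLO NK gate (95% counting interval 3.02 to 3.67) and 3.60-fold higher in the SYN NK gate (3.32 to 3.89). In CD8 T cells it was 3.16-fold (2.98 to 3.35) higher in ALLO and 3.18-fold (3.0 to 3.37) higher in SYN, and in CD4 T cells 2.65-fold in both (2.48 to 2.83 in ALLO, 2.51 to 2.81 in SYN). H2-K1 was 1.96-fold higher in the NK gate, 1.70-fold in CD4 T cells and 1.42-fold in CD8 T cells in ALLO, and 2.02-fold, 1.70-fold and 1.48-fold higher in SYN. H2-D1 differed less in the T cell gates. It was 1.77-fold higher in the NK gate, 1.25-fold in CD4 T cells and 1.1-fold in CD8 T cells in ALLO, and 1.79-fold, 1.21-fold and 1.11-fold higher in SYN. B2m was 1.48-fold to 1.61-fold higher in the 3 gates in ALLO and 1.49-fold to 1.52-fold higher in SYN.

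H2-T23 was 0.903 times its B cell level in ALLO CD4 T cells (0.849 to 0.961) and 0.819 times in SYN CD4 T cells (0.774 to 0.865). In CD8 T cells it was 0.754 times in ALLO (0.707 to 0.804) and 0.804 times in SYN (0.755 to 0.856), although among barcodes of 2000 to 4000 UMIs the ALLO value turned to a log2 difference of 0.02. Tap2 was higher in CD4 T cells by 1.66-fold in ALLO (1.51 to 1.82) and 1.37-fold in SYN (1.25 to 1.5). The remaining ratios of Tap1, Tapbp, Psmb8 and Psmb9 lay between 0.826 and 1.23.

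**Figure D2:**
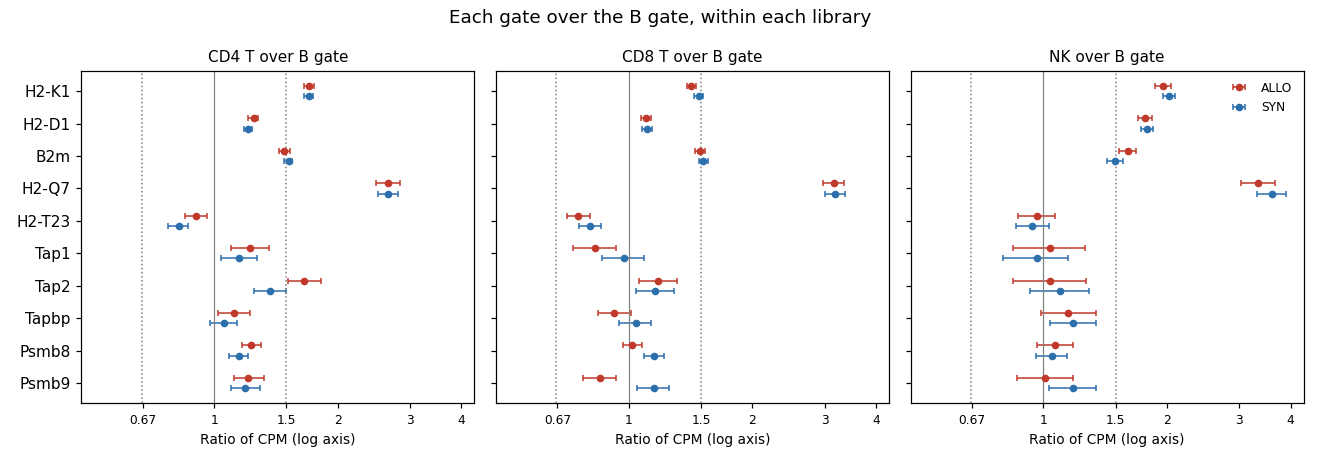
Ratio of CPM in CD4 T, CD8 T and NK gates over the B gate of the same library (log axis), with ALLO above SYN for each gene; bars are exact 95% counting intervals, the solid line marks equal levels and dotted lines 1.5-fold either way. H2-Q7 stands at 2.65-fold to 3.60-fold in all 6 comparisons, and H2-T23 at 0.754 to 0.965.

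Counted at 1.5-fold, 3 of 10 members were higher in CD4 T than in B cells in ALLO (H2-K1, H2-Q7, Tap2) and 3 in SYN (H2-K1, B2m, H2-Q7), where 15.1% (ALLO) and 12.3% (SYN) of all genes with at least 100 UMIs were. In CD8 T cells 1 member was in ALLO (H2-Q7) and 2 in SYN (B2m, H2-Q7), where 10.4% of genes were in both. In the NK gate 4 members were in ALLO (H2-K1, H2-D1, B2m, H2-Q7) and 3 in SYN (H2-K1, H2-D1, H2-Q7), where 19.0% (ALLO) and 17.2% (SYN) of genes were. No member was 1.5-fold lower than in B cells in any gate, where 19.5% of genes in CD4 T cells, 27.8% in CD8 T cells and 18.1% in the NK gate were in ALLO, and 16.5% to 27.6% in SYN. B2m stood at the limit, between 1.48-fold and 1.61-fold, in all 6 comparisons.

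Those ratios share the gate total as denominator, and its composition differed. Ribosomal protein genes took 20.3% of UMIs in the NK gate of both libraries, 30.8% (ALLO) and 33.5% (SYN) in CD4 T cells, 37.6% (ALLO) and 37.0% (SYN) in CD8 T cells, and 27.5% (ALLO) and 26.5% (SYN) in B cells. The median log2 difference of all genes from B cells was -0.22 in CD8 T cells of both libraries, so relative to the typical gene the CD8 T values are higher by that amount. With the typical gene as base, 3 members were 1.5-fold higher in CD8 T cells in each library. No share of all genes is given on that base, so this count cannot be read as particular to the members.

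In the stricter NK gate the classical genes stood further above B cells. H2-K1 had 3675 (ALLO) and 3694 (SYN) CPM, 2.50-fold (2.37 to 2.64) and 2.41-fold (2.31 to 2.51) above the B cells of the same library. H2-D1 had 4000.5 (ALLO) and 3876 (SYN), 2.28-fold above B cells in ALLO and 2.11-fold in SYN. H2-Q7 had 739 (ALLO) and 809 (SYN), 4.45-fold above B cells in ALLO (3.94 to 5.02) and 4.71-fold in SYN (4.29 to 5.16). B2m was 1.74-fold above B cells in ALLO and 1.71-fold in SYN. H2-T23 stayed at 0.986 times the B cell level in ALLO and 1.03 times in SYN, and the loading and immunoproteasome genes lay between 0.920 and 1.18. The B cells compared here, 6777 in ALLO and 6498 in SYN, had no UMI of Cd4, Cd8a, Cd8b1, Trac, Ncr1 or Klrb1c.

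The balance between the classical genes differed between cell types, with similar values in the libraries. Tags at 5′ ends are not divided by transcript length, and since capture can differ between genes, these balances are compared only across gates. There were 92.2 (ALLO) and 94.4 (SYN) H2-K1 UMIs per 100 H2-D1 UMIs in the NK gate, 114 (ALLO) and 117 (SYN) in CD4 T cells, 108 (ALLO) and 111 (SYN) in CD8 T cells, and 83.5 (ALLO) and 83.6 (SYN) in B cells. H2-T23 gave 7.58 (ALLO) and 7.08 (SYN) UMIs per 100 of H2-K1 and H2-D1 in the NK gate, against 14.6 (ALLO) and 14.3 (SYN) in B cells. Psmb8, the inducible counterpart of Psmb5, gave 304 (ALLO) and 302 (SYN) UMIs per 100 of Psmb5 in the NK gate, 406 (ALLO) and 360.4 (SYN) in CD4 T cells, 391 (ALLO) and 383 (SYN) in CD8 T cells, and 366 (ALLO) and 335 (SYN) in B cells. The intervals of neighbouring gates overlapped for this balance in most cases.

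Whether repeated grafting with HLA-A2.1 skin went with another level of the class I pathway was read from ALLO over SYN. No member differed by 1.5-fold in any of the 4 gates. Among all genes with at least 100 UMIs over both libraries, 0.969% were higher and 1.91% lower in ALLO B cells, 3.30% higher and 1.19% lower in ALLO CD4 T cells, 0.787% higher and 1.84% lower in ALLO CD8 T cells, and 1.46% higher and 2.72% lower in the ALLO NK gate. All 10 members summed to 1.05% of UMIs in ALLO and 1.09% in SYN in the NK gate, 0.911% (ALLO) and 0.917% (SYN) in CD4 T cells, 0.814% (ALLO) and 0.870% (SYN) in CD8 T cells, and 0.643% (ALLO) and 0.658% (SYN) in B cells.

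In B cells, where counts were deepest, H2-K1 was 0.951 times its SYN level in ALLO (0.937 to 0.965) and H2-D1 0.952 times (0.939 to 0.964). Both lie beside a median of all genes of -0.07 on the log2 scale, and centred on that median the log2 difference of each was 0.00. B2m stood at 0.989 (0.974 to 1.00), H2-Q7 at 0.956, H2-T23 at 0.970, Tap2 at 0.957 and Tapbp at 0.999. Tap1 was 1.09-fold (1.04 to 1.15), Psmb8 1.05-fold (1.03 to 1.08) and Psmb9 1.14-fold (1.1 to 1.19) higher in ALLO. Psmb9 had 205 CPM in ALLO B cells and 179 in SYN B cells, and was the member past 1.1-fold there, where 4.89% of genes with at least 1000 UMIs were as much higher and 26.1% as much lower in ALLO.

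In CD4 T cells 4 members were past 1.1-fold, all of them higher in ALLO, where 20.3% of genes with at least 1000 UMIs were as much higher and 18.7% as much lower. Psmb9 had 249 CPM in ALLO and 214 in SYN, which gives a ratio of 1.16 (1.05 to 1.29). Tap2 had 197 in ALLO and 169 in SYN, which gives a ratio of 1.16 (1.03 to 1.31). Tap1, with under 1000 UMIs, stood at 1.16 (1.01 to 1.33) and Psmb8 at 1.13 (1.05 to 1.21), and among barcodes of 2000 to 4000 UMIs the log2 difference of each of these turned to -0.02. The heavy chains and B2m lay between 0.953 and 1.07. The members' median log2 difference was 0.09, and lay between -0.02 and 0.10 over the settings tried. NK markers in this gate (6 of 6 detected in ALLO, 5 in SYN) summed to 263 CPM in ALLO and 95.3 in SYN, neutrophil markers (2 of 4 in ALLO, 4 in SYN) to 5.00 in ALLO and 117 in SYN, and erythroid markers (4 of 5 in each) to 47.7 in ALLO and 2.49 in SYN. What these transcripts contribute to the values was not tested.

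In CD8 T cells, where the median of all genes was also lower in ALLO (-0.07 on the log2 scale), all 10 members were lower, by little. Their ratios lay between 0.848 and 0.973, and the counting interval excluded 1 for H2-K1, H2-D1, H2-T23 and Psmb9. H2-K1 stood at 0.915 (0.883 to 0.948). Psmb9 had 174 CPM in ALLO and 206 in SYN, which gives a ratio of 0.848 (0.751 to 0.958). It and Tapbp, at 0.888 (0.786 to 1.00), were past 1.1-fold, where 14.6% of genes with at least 1000 UMIs were as much lower and 7.80% as much higher in ALLO. The median of the members was -0.10 on the log2 scale and that of all genes -0.07, and among barcodes of 2000 to 4000 UMIs the members' median was 0.03. NK markers in this gate (all 6 detected) summed to 1412 CPM in ALLO and 1047 in SYN. Of these, Gzma had 294 (ALLO) and 70.7 (SYN) and Nkg7 989 (ALLO) and 843 (SYN), while Prf1, Ncr1, Klrb1c and Eomes lay close between libraries. CD8 T cells with at least 2 UMIs of Gzma, Gzmb, Klrg1 and Cx3cr1 together numbered 40 in ALLO and 11 in SYN. Erythroid markers (3 of 5 detected in ALLO, all 5 in SYN) summed to 1.04 in ALLO and 209.8 in SYN. Dendritic cell markers (2 of 4 detected in each) summed to 0.695 in ALLO and 10.8 in SYN. The part of these transcripts and cells in the members' values was not tested.

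In the NK gate the ratios lay between 0.884 and 1.18, with 3 members higher and 7 lower in ALLO. H2-Q7, at 0.884 (0.785 to 0.996), was past 1.1-fold, where 15.1% of genes with at least 1000 UMIs were as much lower and 8.57% as much higher in ALLO. Tap1, with 105 UMIs in ALLO and 124 in SYN, had too few to be set against that share, and stood at 1.18 (0.900 to 1.54). H2-K1 stood at 0.920 (0.873 to 0.970) and H2-D1 at 0.942 (0.896 to 0.991). In the stricter NK gate H2-K1 stood at 0.995 (0.931 to 1.06) and H2-D1 at 1.03 (0.968 to 1.1). The other members lay between 0.914 for H2-Q7 (0.789 to 1.06) and 1.35 for Tap1 (0.930 to 1.96), and each of the 10 intervals there included 1. Tapbp, Psmb9 and H2-D1 were thus below 1 in the wider gate and above 1 in the stricter one. Cells with under 10% ribosomal protein UMIs made up 10.4% of the NK gate in ALLO and 4.78% in SYN. Plasma cell markers in the NK gate summed to 2416 CPM in ALLO and 143 in SYN, and their part in its values was not tested.

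**Figure D3:**
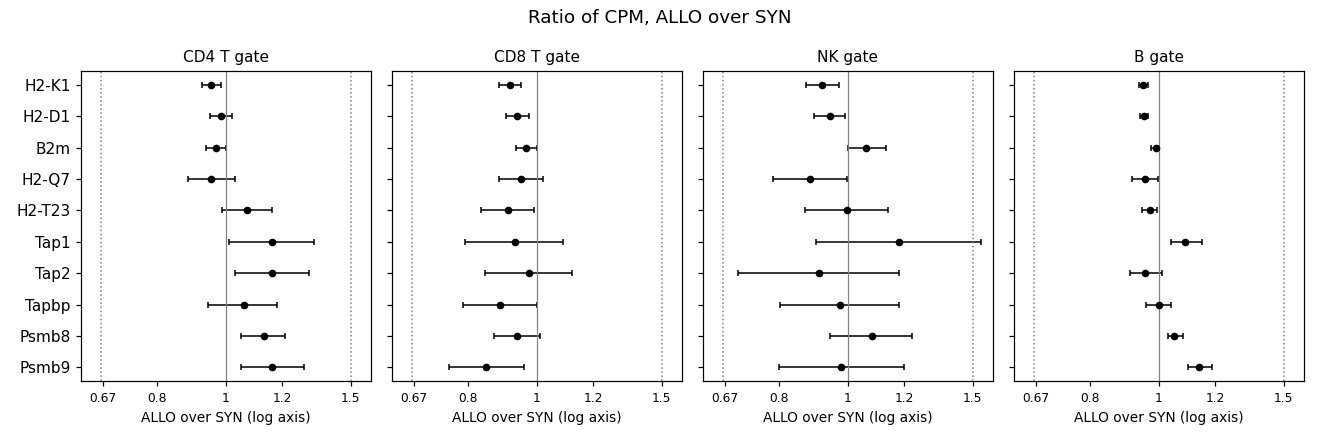
Ratio of CPM, ALLO over SYN, for the 10 genes in each gate (log axis); points are ratios of 1 library to 1 library, bars exact 95% counting intervals, the solid line equal levels and dotted lines 1.5-fold either way. All 40 ratios lie between 0.848 and 1.18.

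The other loading and proteasome genes also differed little between ALLO and SYN. None of the 3 further immunoproteasome and activator genes and none of the 8 further loading genes passed 1.5-fold in any gate. Psme1 and Psme2, subunits of the proteasome activator PA28, were 1.13-fold (1.09 to 1.16) and 1.11-fold (1.07 to 1.16) higher in ALLO B cells. In CD4 T cells Psme2 stood at 1.12 (1.03 to 1.22), and all 14 constitutive proteasome genes were also above 1 there, with a median log2 difference of 0.18. Of 9 other heavy chain genes with at least 100 UMIs in B cells, 1 passed 1.5-fold: Mr1, which presents vitamin metabolites, with 145 UMIs in ALLO and 86 in SYN, which gives a ratio of 1.52 (1.15 to 2.0). In B cells 0.969% of all genes were as much higher in ALLO and 1.91% as much lower. H2-T10 was not analysed here.

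The 3 regulators furthest from 1 in B cells were all higher in ALLO, while the median of all 17 was -0.06 on the log2 scale. Nlrc5 had 20.5 CPM in ALLO and 15.5 in SYN, which gives a ratio of 1.32 (1.15 to 1.52). Irf1, a transcription factor that interferon gamma induces, had 139 in ALLO and 106 in SYN, which gives a ratio of 1.31 (1.24 to 1.38). Irf9, a part of the factor that type I interferons activate, stood at 1.29 (1.19 to 1.40). None of the 17 regulators passed 1.5-fold in B cells, and in CD4 T cells 1 of 14 with at least 100 UMIs did: Ifnar2, a chain of the type I interferon receptor, at 1.59 (1.31 to 1.93). In CD4 T cells 3.30% of all genes were as much higher in ALLO and 1.19% as much lower. Of 10 interferon-induced genes, 7 had at least 100 UMIs in B cells and 5 of these were 1.5-fold higher in ALLO, where 0.969% of all genes were, with a median log2 difference of 0.71. Ifit3 had 301 UMIs in ALLO and 114 in SYN, which gives a ratio of 2.37 (1.91 to 2.97), while H2-K1 and H2-D1 in the same gate were slightly below 1. Of the Ifit3 UMIs, 238 in ALLO and 63 in SYN came from the interferon-high B cells described below, which Ifit3 itself helps to select. The other B cells had 2.55 CPM of Ifit3 in ALLO and 2.26 in SYN.

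Nlrc5 also differed between gates. It had 48.0 (ALLO) and 47.8 (SYN) CPM in the NK gate, 54.9 (ALLO) and 49.9 (SYN) in CD8 T cells, 42.7 (ALLO) and 41.2 (SYN) in CD4 T cells, and 20.5 (ALLO) and 15.5 (SYN) in B cells. It was thus 2.08-fold to 3.21-fold above B cells in these 6 comparisons. Of all 17 regulators, 2 to 4 were 1.5-fold higher than in B cells in each comparison, where 10.4% to 19.0% of all genes were. In each T cell gate 6 regulators were 1.5-fold lower, and in the NK gate 2, where 16.5% to 27.8% of all genes were.

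Receptors that read class I molecules are known from NK and CD8 T cells. In CD8 T cells Klrc1, which encodes the NKG2A chain that pairs with CD94 to bind Qa-1, had 148 UMIs in ALLO and 80 in SYN, which gives a ratio of 1.79 (1.36 to 2.38). Klra7 there stood at 0.761 (0.582 to 0.993) and Klrd1 at 1.13 (1.02 to 1.25). Of the 6 receptor genes with at least 100 UMIs there, 3 were higher and 3 lower in ALLO. The lower ones include Cd8b1, at 0.976, which selects this gate, and Cd8a, at 0.867. Klrc1 alone passed 1.5-fold, where 0.787% of all genes were as much higher. In the NK gate Klra8 and Klra4, of the Ly49 family, several members of which bind classical class I, stood at 0.786 (0.710 to 0.868) and 0.761 (0.677 to 0.856), and Cd160 at 1.62 (1.21 to 2.16). Of the other Ly49 genes of the list, Klra7 stood at 0.829 (0.703 to 0.975), Klra9 at 1.08 (0.908 to 1.27) and Klra3 at 1.19 (0.982 to 1.44). In the B gate 6 of 10 receptor genes were 1.5-fold lower in ALLO, where 1.91% of all genes were, with Klra8 at 3.42 CPM in ALLO and 8.77 in SYN. The 6 NK markers in the B gate summed to 74.3 CPM in ALLO and 101 in SYN, and the part of NK transcripts in these values was not tested.

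Cells with at least 3 UMIs over the 10 interferon-induced genes, none of them a member, were 207 of the ALLO B cells (2.98%) and 116 of the SYN B cells (1.71%). Among CD4 T cells they were 54 in ALLO (9.42%) and 42 in SYN (4.84%), among CD8 T cells 45 in ALLO (8.06%) and 29 in SYN (5.23%), and in the NK gate 9 in ALLO and 8 in SYN. Only the B cells gave at least 50 such cells in both libraries, and the comparison of members was made there. These cells were deeper, with median UMIs of 3809 in ALLO and 3682 in SYN against 3166 (ALLO) and 2998 (SYN) in the other B cells.

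Within B cells Tapbp, Tap1, H2-T23, Psmb9 and B2m were higher in interferon-high than in other cells in both libraries, while Tap2 did not differ beyond counting error in either. Tapbp had 291 (ALLO) and 286 (SYN) CPM in interferon-high cells, against 188 (ALLO) and 189.8 (SYN) in the others, ratios of 1.55 in ALLO (1.37 to 1.74) and 1.51 in SYN (1.28 to 1.76). Tap1 had 183 (ALLO) and 176 (SYN) in interferon-high cells, against 122 (ALLO) and 113 (SYN) in the others, ratios of 1.49 in ALLO (1.28 to 1.73) and 1.56 in SYN (1.27 to 1.90). H2-T23 had 650.1 (ALLO) and 639 (SYN) in interferon-high cells, against 463 (ALLO) and 482 (SYN) in the others, ratios of 1.40 in ALLO (1.30 to 1.52) and 1.33 in SYN (1.19 to 1.47). All these intervals excluded 1 in both libraries, as they did for Psmb9, at 1.35 in ALLO (1.19 to 1.52) and at 1.35 in SYN (1.13 to 1.60), and for B2m, at 1.18 in ALLO (1.13 to 1.24) and at 1.23 in SYN (1.16 to 1.31).

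H2-K1 stood at 1.01 in ALLO (0.957 to 1.06) and at 1.09 in SYN (1.03 to 1.17), and H2-D1 at 1.04 in ALLO (0.996 to 1.09) and at 1.09 in SYN (1.03 to 1.15). Tap2, the partner of Tap1 in the transporter, stood at 1.13 in ALLO (0.948 to 1.34) and at 1.00 in SYN (0.783 to 1.27). H2-Q7 and Psmb8 differed between the libraries: H2-Q7 was at 0.921 in ALLO (0.781 to 1.08) and at 1.28 in SYN (1.07 to 1.53), and Psmb8 at 1.25 in ALLO (1.15 to 1.36) and at 1.01 in SYN (0.888 to 1.14). At 1.5-fold, 1 of 10 members was higher in ALLO (Tapbp) and 2 in SYN (Tap1, Tapbp), where 6.45% (ALLO) and 8.78% (SYN) of all genes were, and none was lower, where 9.03% (ALLO) and 13.2% (SYN) were. The median of the members was 0.28 in ALLO and 0.33 in SYN on the log2 scale, beside -0.01 (ALLO) and -0.04 (SYN) for all genes.

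**Figure D4:**
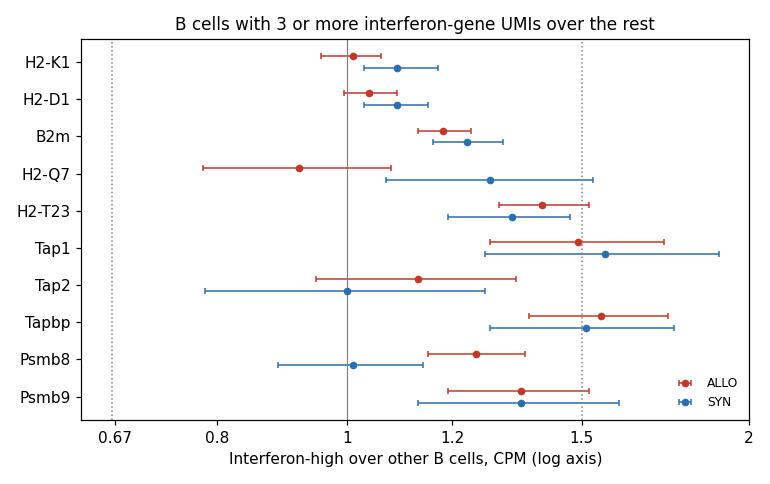
Ratio of CPM in interferon-high B cells (207 in ALLO, 116 in SYN) over the other B cells of the same library (log axis), with ALLO above SYN; bars are exact 95% counting intervals, the solid line equal levels and dotted lines 1.5-fold either way. Tap1, Tapbp, H2-T23 and Psmb9 stand at 1.33-fold to 1.56-fold in both libraries, and H2-K1 and H2-D1 at 1.01-fold to 1.09-fold.

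CD8 T cells with both Cd44 and Ly6c2 UMIs, transcripts that memory CD8 T cells carry, numbered 79 in ALLO and 71 in SYN, beside 184 (ALLO) and 232 (SYN) cells with neither. H2-T23 had 248 (ALLO) and 316 (SYN) CPM in cells with both, against 425 (ALLO) and 435 (SYN) in cells with neither, ratios of 0.583 in ALLO (0.472 to 0.716) and 0.726 in SYN (0.593 to 0.883). H2-Q7 had 522 (ALLO) and 590.0 (SYN) in cells with both, against 521 (ALLO) and 569 (SYN) in cells with neither, ratios of 1.00 in ALLO and 1.04 in SYN. The Qa-1 gene was thus lower in cells with both genes in each library, while the Qa-2 gene did not differ beyond counting error.

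Tap1 stood at 0.898 in ALLO (0.626 to 1.28) and at 0.610 in SYN (0.412 to 0.883), and Tap2 at 0.761 in ALLO (0.551 to 1.04) and at 0.665 in SYN (0.477 to 0.913). H2-K1 stood at 0.937 in ALLO (0.866 to 1.01) and at 0.909 in SYN (0.842 to 0.980). H2-D1 was lower in both libraries, at 0.889 in ALLO (0.819 to 0.964) and at 0.919 in SYN (0.848 to 0.997). B2m differed between them, at 0.858 in ALLO (0.793 to 0.928) and at 1.01 in SYN (0.941 to 1.09). At 1.5-fold, 1 of 10 members was lower in ALLO (H2-T23) and 2 in SYN (Tap1, Tap2), where 7.31% (ALLO) and 5.87% (SYN) of all genes were, and none was higher, where 4.61% (ALLO) and 3.80% (SYN) were. The cells with both genes were deeper, with median UMIs of 6494 (ALLO) and 6046 (SYN) against 3896 (ALLO) and 4139.5 (SYN), and the part of depth in these values was not tested.

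Within B cells, cells with Cr2 but no Fcer2a UMIs, the pattern of marginal zone B cells, were set over cells with Fcer2a but no Cr2 UMIs. H2-T23 and H2-D1 were lower and B2m and H2-K1 higher in the first set. The first set held 901 ALLO and 863 SYN cells and the second 2355 ALLO and 2346 SYN cells. H2-T23 stood at 0.832 in ALLO (0.784 to 0.883) and at 0.863 in SYN (0.811 to 0.918), H2-D1 at 0.923 in ALLO (0.895 to 0.951) and at 0.918 in SYN (0.890 to 0.947), and B2m at 1.09 in ALLO (1.06 to 1.13) and at 1.12 in SYN (1.09 to 1.16). Median UMIs were 3527 (ALLO) and 3148 (SYN) in the first set, against 2924 (ALLO) and 2848 (SYN) in the second. No member passed 1.5-fold, where 3.51% (ALLO) and 4.23% (SYN) of genes were higher and 4.39% (ALLO) and 4.53% (SYN) lower.

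B cells with at least 2 UMIs of Myc and Il4i1 together, transcripts that activated B cells carry, numbered 1132 in ALLO and 903 in SYN, beside 4399 (ALLO) and 4642 (SYN) with no UMI of either. They were deeper, with median UMIs of 4292 (ALLO) and 4169 (SYN) against 2957 (ALLO) and 2822 (SYN), and the part of depth in the values of both B cell comparisons was not tested. H2-D1 stood at 0.900 in ALLO (0.879 to 0.921) and at 0.908 in SYN (0.885 to 0.931), and H2-T23 at 0.874 in ALLO (0.835 to 0.915) and at 0.882 in SYN (0.839 to 0.927). No member passed 1.5-fold, where 3.62% (ALLO) and 4.86% (SYN) of genes were higher and 3.14% (ALLO) and 4.67% (SYN) lower. The activator subunit Psme2, which is no member, was 1.54-fold (1.45 to 1.64) higher in ALLO and 1.71-fold (1.59 to 1.82) higher in SYN.

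Dividing cells of any type, taken by Mki67 and Top2a UMIs, numbered 153 in ALLO and 139 in SYN. Psmb9 had 314 (ALLO) and 292 (SYN) CPM in them, 1.53-fold (1.39 to 1.68) above the B gate in ALLO and 1.63-fold (1.45 to 1.82) in SYN. H2-Q7 had 312 (ALLO) and 292 (SYN), 1.86-fold above the B gate in ALLO and 1.66-fold in SYN, and Tap1 was 1.33-fold above it in both. H2-T23 stood at 0.745 in ALLO (0.682 to 0.811) and at 0.769 in SYN (0.695 to 0.848). These cells mix cell types, and the part of that mix in their values was not tested.

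Thinned to 1000 UMIs per cell, nearly all cells held transcripts of H2-K1, H2-D1 or B2m. The median number per cell of these 3 genes together was 8 in the NK gate, 7 in CD4 T cells and 6 in CD8 T cells in both libraries, and in B cells 4 in ALLO and 5 in SYN. No such UMI was found in 140 of 6941 ALLO B cells (2.02%) and 105 of 6801 SYN B cells (1.54%), and in 1 to 4 cells of each other gate. The variance over the mean, which is 1 for pure counting, was 2.26 (ALLO) and 2.08 (SYN) in the NK gate, 1.58 (ALLO) and 1.48 (SYN) in CD4 T cells, 1.51 (ALLO) and 1.4 (SYN) in CD8 T cells, and 1.35 (ALLO) and 1.4 (SYN) in B cells. The NK gate, which also held B cell transcripts, was the most uneven.

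**Figure D5:**
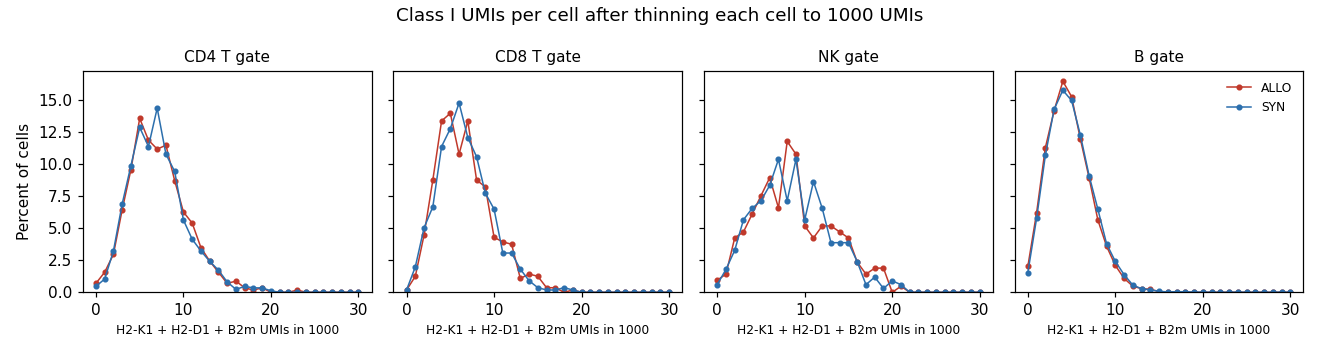
Share of cells (%) by the number of H2-K1, H2-D1 and B2m UMIs together after thinning each cell to 1000 UMIs, by gate and library. The B cell distribution peaks lowest, with medians of 4 in ALLO and 5 in SYN, and that of the NK gate is widest, with a median of 8 in both.

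Over the 8 values of 4 gates in 2 libraries, the genes whose log2 level ran most like that of a member were not other members. Nearly all genes compared were not members and the values were few, so this says little about the members. Among 1081 genes with at least 100 UMIs in each value, Pearson's r to H2-K1 was 0.994 for Myl12a, 0.993 for Il2rg and 0.991 for Laptm5, and to H2-Q7 it was 0.995 for both Bin2 and Selplg and 0.994 for Txk. B2m ran most like Rinl (0.992), and H2-D1 most like Tln1 (0.986). Among the members, r was 0.979 between B2m and H2-Q7, 0.910 between H2-K1 and B2m, and -0.594 between H2-T23 and B2m. The 8 values share libraries and gate totals, so these figures describe the gates and carry no test.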

How the data were processed

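Gene counts from 10x Genomics 5′ single-cell libraries were deposited as UMI count matrices; Cell Ranger 6.0.2 made them, as the file headers record. The submitters' processing notes name the mm10 build. The counting's strand setting is not given in the sources used here. Barcodes with at least 1000 UMIs, at least 200 genes and at most 10% mitochondrial UMIs were kept. Scrublet's automatic threshold marked 0 ALLO and 2 SYN barcodes, too few for it to have worked, so doublets were in effect not removed.

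Gates were set by UMIs: at least 2 of Cd79a and Cd79b without Cd3 for B, Cd3 with Cd4 or Cd8b1 (not both) and without Cd79a for T, and Ncr1 or Klrb1c without Cd3 for NK cells. UMIs were summed per gate and scaled to 1000000 UMIs of the gate (CPM). Ratios carry exact conditional 95% intervals, which cover counting error only; scripts were tested on simulated data. Genes with at least 100 UMIs over both samples compared were counted at 1.5-fold, and those with at least 1000 also at 1.1-fold. All members were named, and genes of other lists were taken from the 3 furthest from 1 in a gate. Any other gene named was chosen after its values were seen. Members and lists were chosen with earlier results of these data known. Python 3.11.15, numpy 2.4.6, scipy 1.17.1, pandas 2.3.3 and scanpy 1.11.5 were used.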

Additional observations from a re-analysis of the deposited data

Results flagged for a closer look

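Psmb9 stood above 1 in ALLO over SYN in B cells, at 1.14 (1.1 to 1.19), and below 1 in CD8 T cells, at 0.848 (0.751 to 0.958), so that the ratio of both was 1.34. It was also above 1 in CD4 T cells, at 1.16 (1.05 to 1.29), which gives a ratio of 1.37 to the CD8 T value. These were picked out because the single libraries moved in opposite directions in different cell types. The difference was not tested, since each group is 1 library. The log2 difference lay between 0.18 and 0.26 in B cells, between 0.10 and 0.26 in CD4 T cells and between -0.28 and -0.13 in CD8 T cells over the settings tried.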

How the results depend on the processing

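No paired analysis was possible because each group has 1 library and the groups share 1 replicate number. Over 12 alternatives, 2 of them (leaving out the top 5% of Scrublet scores, and barcodes of 2000 to 4000 UMIs) chosen after seeing the data, H2-Q7 over B cells stayed between 1.32 and 2.27 on the log2 scale, and H2-K1 between 0.49 and 1.32. The members' median ALLO over SYN was 0.04 in B cells when centred on all genes, against -0.03, and 0.03 in CD8 T cells among barcodes of 2000 to 4000 UMIs, against -0.10. Members 1.5-fold higher in ALLO CD8 T than in ALLO B cells numbered 1, but 3 with a denominator without receptor, mitochondrial and ribosomal protein genes, 3 when centred, 2 as a mean over cells, 2 when thinned and 4 among barcodes of 2000 to 4000 UMIs. No share of all genes is given for these alternatives, so the counts cannot be read as particular to the members. With genes of at least 20 UMIs, the share of all genes past 1.5-fold was 7.85% in B cells (2.88% at 100 UMIs), 12.7% in CD4 T cells (4.49%), 10.9% in CD8 T cells (2.62%) and 15.6% in the NK gate (4.18%). A member passed 1.5-fold in ALLO over SYN only when thinned, Tap2 in CD4 T cells at 0.63 and Tap1 in the NK gate at 0.71 on the log2 scale. The causes were not tested. Depth limits Tap1, Tap2 and Psmb9 most in the NK gate.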
